A study of Mus musculus with 8 samples.

Results

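The simple epithelial keratin genes Krt7, Krt8, Krt18 and Krt19 and 4 further genes of the bile duct epithelium, Sox9, Epcam, Spp1 and Cdh1, were followed through whole-liver RNA of mice with acute liver injury. They were found by gene symbol in a table of 55416 genes, which held 1 row for each of the 8. The livers came from 4 groups with 2 libraries each. Floxed mice (Glulflox/flox) served as controls for GlulΔlyz2 mice (KO), in which Cre recombinase driven from the Lyz2 locus removes Glul, the gene of glutamine synthetase, from myeloid cells, so that hepatocytes and bile duct cells are not the cells targeted. Mice of each genotype had received either H2O or 1 mg/kg lipopolysaccharide (LPS) together with 200 mg/kg D-galactosamine (D-GalN) into the peritoneal cavity. LPS sets off the release of cytokines, and D-GalN, by depleting uridine nucleotides, leaves hepatocytes unable to transcribe the genes that protect them from those cytokines. No wild-type group is among the 8 libraries, and the sources used here give neither the age and sex of the mice nor the time from injection to collection. Whether libraries of the same group are from different animals is not stated in the labels, so the p-values measure only the spread between these libraries, which may be technical.

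Keratins 8 and 18 assemble in pairs, 1 acidic and 1 basic chain, into the intermediate filaments of hepatocytes, where they buffer the cell against mechanical and toxic stress. Bile duct cells (cholangiocytes) hold the same pair and add keratins 7 and 19, which is why these last serve as duct markers in liver sections. Sox9 is a transcription factor of the ducts that hepatocytes can also switch on in damaged liver, Epcam and E-cadherin (Cdh1) are adhesion molecules of epithelial cells, and Spp1 encodes osteopontin, a secreted matrix protein made by ducts and by some macrophages.

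Between 18381670 and 24799143 fragments were assigned to genes in each library, and a single fragment in 1 kb of exon corresponded to between 0.0403 and 0.0544 FPKM (fragments scaled by gene length and library total). The 12 hepatocyte genes of a marker list summed to between 29255.9 and 40938.3 FPKM in each library, as is usual of liver. Glul stood at 107 and 106 FPKM in the floxed H2O libraries and at 89.8 and 134 FPKM in the KO H2O libraries, so whole liver RNA did not show the deletion, which is directed at myeloid cells. Under injury it stood at 358 and 237 FPKM in floxed and at 74.6 and 90.1 FPKM in KO livers, a log2 difference of -1.82 ± 0.27 (adjusted p = 0.00135). Lyz2 stood at 33.7 and 72.4 FPKM in floxed H2O, 5.27 and 9.92 FPKM in KO H2O, 15.9 and 24.5 FPKM in injured floxed and 39.9 and 32.7 FPKM in injured KO livers. The share of haemoglobin genes was 1.996% and 0.285% in the injured KO libraries and between 0.00443% and 0.0228% in all others. The share of mitochondrial genes was between 6.94% and 6.99% in the injured floxed libraries, between 10.4% and 12.6% in the injured KO libraries and between 12.5% and 22.6% in the H2O libraries. Values above 0 numbered 32178 and 26652 in the injured KO libraries and 22694 and 22688 in the injured floxed ones. With H2O they numbered between 23532 and 25531. The part of this in the values of low genes was not tested.

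Ranked by their median FPKM over the 8 libraries, which is a level per length, the genes fell in the order Krt18 (145), Krt8 (107), Spp1 (36.2), Cdh1 (7.10), Sox9 (3.56), Epcam (1.24), Krt19 (0.558) and Krt7 (0.162). The hepatocyte keratins Krt8 and Krt18 were thus far above the duct keratins: Krt19 reached 1 FPKM in 3 libraries and Krt7 in 0. Krt18 was above Krt8 in every library, though their ranges overlapped within every group except the injured floxed one. For other pairs of genes the order did not hold in every library. In the first injured floxed library Spp1 (65.2 FPKM) was above Krt8 (56.4 FPKM). In the second injured floxed library Sox9 was above Cdh1 and Krt7 above Krt19. Sox9 was above Cdh1 in both injured KO libraries, and Epcam was below Krt19 in all 4 H2O libraries. Genes were tested as log2(FPKM + 1) where they reached 1 FPKM in at least 2 libraries, which kept 7 of the 8 genes and left out Krt7. Epcam reached that level in the 4 injured libraries only and Krt19 in both injured KO libraries and 1 floxed H2O library, so these genes entered the test through groups in which they were high. The words rose, fell and changed are kept for genes with a Benjamini-Hochberg adjusted p from limma under 0.05.

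**Figure D1:**
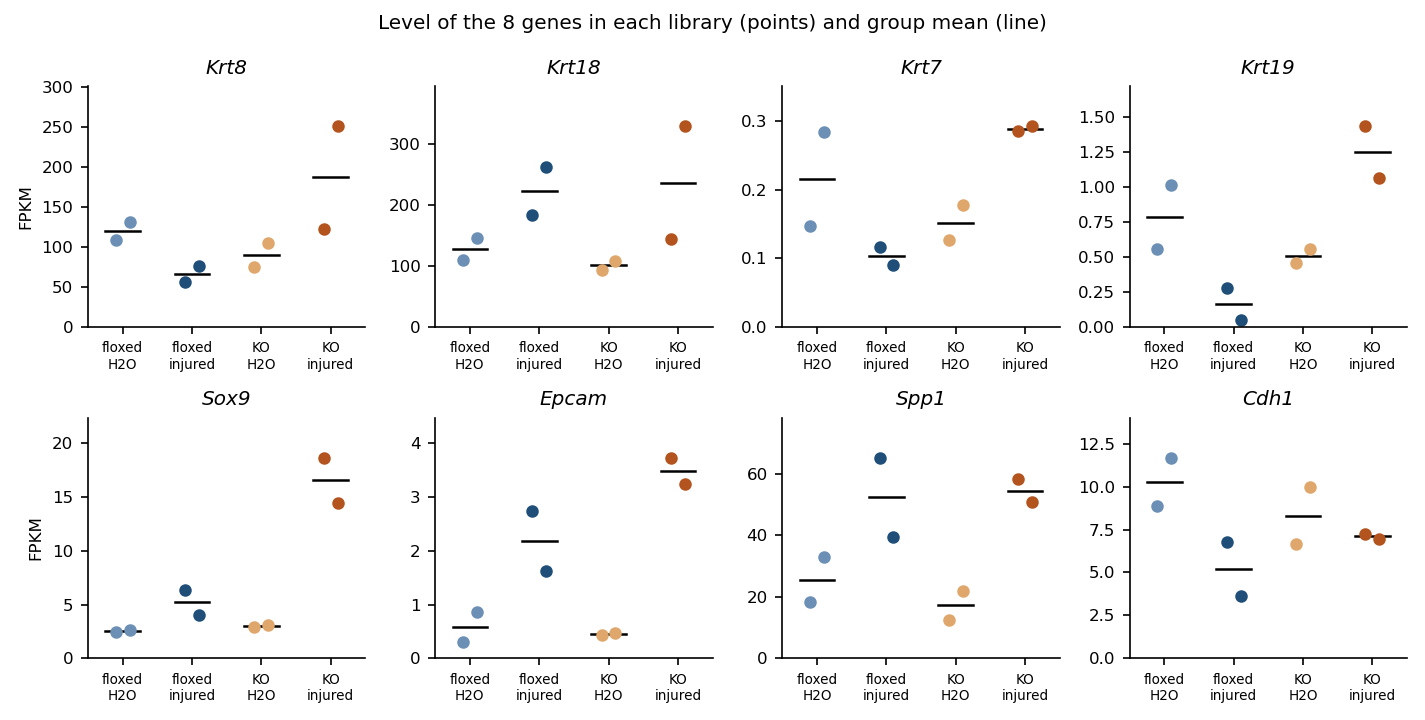
FPKM of each of the 8 genes (vertical axes, each from 0) in the 8 libraries, by group; points are libraries and lines are group means of 2. Sox9 is highest in both injured KO libraries (18.7 and 14.5 FPKM), the injured floxed libraries (56.4 and 76.3 FPKM) and the first KO H2O library (75.1 FPKM) are the lowest for Krt8, and Krt19 and Krt7 stay near or below 1 FPKM.

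In floxed livers the keratins that pair with each other, Krt8 and Krt18, differed from H2O in opposite directions, though neither difference passed. Krt8 stood at 108 and 131 FPKM in the floxed H2O libraries and at 56.4 and 76.3 FPKM in the injured floxed libraries, on between 2154 and 10481 fragments per library over the series. Krt18 went the other way, from 111 and 146 FPKM to 184 and 263 FPKM. In neither gene did the groups overlap. The log2 change was -0.85 ± 0.35 (SE) for Krt8 (adjusted p = 0.0721) and 0.79 ± 0.38 for Krt18 (adjusted p = 0.115). The Krt8 difference passed with voom on the recovered fragments (adjusted p = 0.0290) and in 7 of 18 settings in all, and the Krt18 difference passed in 4 of 18 (lowest adjusted p = 0.0328). In whole liver RNA, fewer cells of a type and less RNA per cell cannot be told apart, here or in any result that follows.

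In KO livers both keratins rose with injury. Krt8 moved from 75.1 and 105 FPKM with H2O to 123 and 251 FPKM with injury, a 2.07-fold difference of group means and a log2 change of 0.97 ± 0.35 (adjusted p = 0.0423). Krt18 moved from 94.1 and 108 FPKM to 144 and 330.0 FPKM, a 2.35-fold difference and a log2 change of 1.11 ± 0.38 (adjusted p = 0.0359). The second injured KO library was the highest of all 8 for both genes, and without it the changes were 0.46 (adjusted p = 0.234) for Krt8 and 0.51 (adjusted p = 0.187) for Krt18. Leaving out the first KO H2O library also ended both calls (adjusted p = 0.195 and 0.132), and leaving out the second ended that of Krt18 (0.0786). Over all 18 settings the rise of Krt8 passed in 8 and that of Krt18 in 11, and both were lost without the filter, under quantile normalisation, with array weights and with only the compared groups in the fit. The Krt8 call was also lost when any 1 of the 4 floxed libraries was left out, which alters only the estimate of the spread (adjusted p between 0.0567 and 0.0590).

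Because a library's scaling cancels in the ratio of 2 of its own genes, the Krt8 to Krt18 ratio was taken within each library. In floxed livers it was 0.979 and 0.899 with H2O and 0.306 and 0.290 with injury. In KO livers it was 0.798 and 0.977 with H2O and 0.853 and 0.762 with injury. Both injured floxed libraries thus lay far below the other 6, which stayed between 0.762 and 0.979. The group means were 0.298 ± 0.0113 (SD, n = 2) in injured floxed livers against 0.939 ± 0.0570 in floxed H2O livers, a log2 difference of -1.65. In KO livers the difference between injury and H2O was -0.13. An exact two-sided permutation test of 2 libraries against 2 gave p = 0.333 for the floxed difference, which is the smallest that design allows, so the test could not have passed. Its p was also 0.333 for injured KO against injured floxed livers, where the log2 difference was 1.43. Adjusted over the 20 tests of 5 such ratios in 4 comparisons, both p-values were 0.606.

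**Figure D2:**
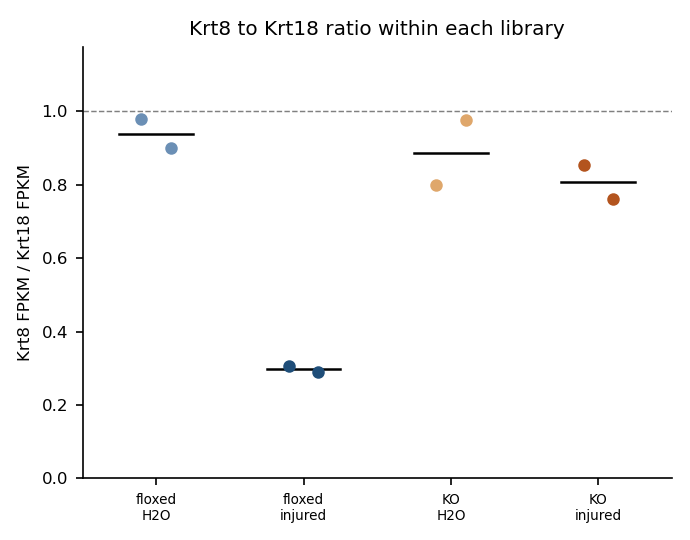
Krt8 FPKM divided by Krt18 FPKM in each library (points) with the mean of each group of 2 (line); the dashed line marks equal levels. The injured floxed libraries sit at 0.306 and 0.290, and the other 6 between 0.762 and 0.979.

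The 2 genes are neighbours on chromosome 15, with starts 23.9 kb apart and on opposite strands, and their promoters are shown because the levels of the paired genes went in different directions in floxed livers. Krt8 is read from the minus strand (chr15:102004293-102004592) and Krt18 from the plus strand (chr15:102027966-102028265). The sequences are those of RefSeq on GRCm38.p6, from 250 bases before to 50 bases after the gene start, on the gene's own strand. Entries matched 5 of the 8 genes (Krt7, Krt8, Krt18, Epcam and Spp1). Capitals mark matches to 5 motifs searched on both strands. These were the core promoter motif TATAAA, the Sp1 motif of letters GGGCGG, the motif of AP-1 factors written as TGANTCA, the one of STAT factors written as TTCNNNGAA, and the motif of Snail-type repressors with the letters CACCTG.
Krt8: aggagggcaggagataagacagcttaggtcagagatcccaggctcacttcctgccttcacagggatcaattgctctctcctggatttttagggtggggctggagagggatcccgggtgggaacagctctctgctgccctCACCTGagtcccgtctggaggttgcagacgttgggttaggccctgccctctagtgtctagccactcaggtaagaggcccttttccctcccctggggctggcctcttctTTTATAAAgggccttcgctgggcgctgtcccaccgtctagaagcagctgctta
Krt18: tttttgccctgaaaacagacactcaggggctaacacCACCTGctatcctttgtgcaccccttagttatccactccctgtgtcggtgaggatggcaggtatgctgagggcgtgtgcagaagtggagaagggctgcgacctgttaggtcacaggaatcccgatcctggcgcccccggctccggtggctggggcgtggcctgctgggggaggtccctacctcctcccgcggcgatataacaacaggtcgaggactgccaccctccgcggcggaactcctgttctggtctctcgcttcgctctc
The Krt8 window held CACCTG 111 bases before the start, and TATAAA overlapping its own reverse complement within 3 bases of the annotated start. The Krt18 window held CACCTG 214 bases before the start and no other of these motifs. The motif CACCTG is in 20.2% of the 32851 RefSeq promoters of the same length, TATAAA in 13.6%, GGGCGG in 35.7%, TTCNNNGAA in 8.3% and TGANTCA in 7.81%. These matches describe the letters only.

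The duct keratins Krt19 and Krt7 were low, and both were lowest in injured floxed and highest in injured KO livers. Krt19, the acidic keratin of ducts, stood at 0.558 and 1.01 FPKM in floxed H2O libraries, 0.276 and 0.0457 FPKM in injured floxed, 0.455 and 0.557 FPKM in KO H2O, and 1.43 and 1.06 FPKM in injured KO libraries. Its injured floxed values rested on 10 and 2 fragments, and its injured KO values on 66 and 42. The injured KO libraries were above every other library, and the injured floxed ones below every other. The second injured KO library (42 fragments) was above the second floxed H2O library (44 fragments) by little, within counting error. Krt19 fell in floxed livers (log2 change -0.62 ± 0.19, adjusted p = 0.0243) and rose in KO livers (0.57 ± 0.19, adjusted p = 0.0289). The added 1 FPKM shrinks the change of so low a gene: with 0.1 FPKM added the changes were -1.87 (adjusted p = 0.0168) and 1.15 (adjusted p = 0.0874). Over the 17 settings that tested Krt19 the fall passed in 12 and the rise in 11, and not every loss is named here. The fall was lost without the second floxed H2O library (adjusted p = 0.146), without the second injured floxed library (0.132), under median centring (0.149) and under quantile normalisation (0.254). The rise was lost without either KO H2O library (0.104 and 0.0596) or without the first injured KO library (0.117).

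Krt7, the basic keratin of ducts, took between 15 and 50 fragments per library. It stood at 0.147 and 0.285 FPKM in floxed H2O livers, 0.116 and 0.0902 FPKM in injured floxed, 0.126 and 0.178 FPKM in KO H2O, and 0.286 and 0.293 FPKM in injured KO livers. Its 2 highest libraries were the injured KO ones, by little over the second floxed H2O library, and its 2 lowest the injured floxed ones. The injured KO libraries also had the most genes above 0 FPKM and the injured floxed ones the fewest. The part of this in the Krt7 and Krt19 values was not tested. It was not among the genes tested. In a fit without the filter on low values, its adjusted p was 0.341 for injury in floxed livers, 0.199 for injury in KO livers and 0.107 for KO against floxed under injury.

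Sox9 rose with injury in both genotypes. It stood at 2.41 and 2.62 FPKM in floxed H2O libraries, 6.33 and 4.07 FPKM in injured floxed, 2.94 and 3.05 FPKM in KO H2O, and 18.7 and 14.5 FPKM in injured KO libraries. The injured KO libraries were above every other, and the injured floxed ones lay between them and both H2O groups, with no overlap between the injured groups. The mean was 5.53-fold higher with injury in KO livers, from 2.99 ± 0.0820 (SD, n = 2) to 16.6 ± 2.97 FPKM, and the log2 change was 2.13 ± 0.20 (adjusted p = 9.94e-05). In floxed livers it was 2.07-fold higher (0.79 ± 0.20, adjusted p = 0.0113). That floxed rise was lost without the first floxed H2O library (adjusted p = 0.0597) or the first injured floxed library (0.0766), whereas the KO rise passed in all 18 settings tried.

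Epcam, an adhesion molecule absent from most resting hepatocytes and present on ducts and progenitor cells, rose with injury in both genotypes. It stood at 0.300 and 0.855 FPKM in floxed H2O livers (14 and 44 fragments) and at 2.73 and 1.62 FPKM in injured floxed livers (117 and 84 fragments). In KO livers it stood at 0.427 and 0.471 FPKM with H2O and at 3.73 and 3.23 FPKM with injury. All 4 injured libraries were above all 4 H2O libraries, and the injured KO pair was above the injured floxed pair. The log2 change was 1.01 ± 0.22 (adjusted p = 0.00606) in floxed livers and 1.63 ± 0.22 (adjusted p = 0.000531) in KO livers. Both passed in all 17 settings that tested the gene, and with 0.1 FPKM added the changes were 1.84 and 2.70. Epcam entered the main test through its injured libraries only.

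Epcam and Krt19 are both duct markers, and their ratio was taken within each library. The ratio of Epcam to Krt19 FPKM was between 0.538 and 0.939 in the 4 H2O libraries. It was 9.89 and 35.5 in the injured floxed libraries, the second of which rests on 2 Krt19 fragments, and 2.60 and 3.04 in the injured KO libraries. Per length, Krt19 was thus the higher in every H2O library and Epcam in every injured library. The H2O values rest on between 14 and 44 Epcam and 18 and 44 Krt19 fragments, with equal numbers in 2 of the 4 libraries, so the order with H2O lies within counting error and turns on exon length (1855 bases for Krt19 and 2195 for Epcam).

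Cdh1, which joins epithelial cells to each other and is made by periportal hepatocytes as well as ducts, did not follow Epcam. It stood at 8.85 and 11.7 FPKM in floxed H2O livers and at 6.79 and 3.62 FPKM in injured floxed livers, a fall of -0.90 ± 0.28 on the log2 scale (adjusted p = 0.0263). In KO livers it stood at 6.64 and 9.99 FPKM with H2O and at 7.24 and 6.97 FPKM with injury, where the groups overlapped and the change did not pass (-0.18 ± 0.28, adjusted p = 0.602, 95% interval -0.83 to 0.48). Over all 18 settings the fall in floxed livers passed in 13, and not every loss is named here. The fall in floxed livers was lost under median centring (-0.62, adjusted p = 0.101), under quantile normalisation (0.0632), without the second floxed H2O library (0.134) and without the second injured floxed library (0.163).

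Spp1, the gene of osteopontin, was higher in every injured library than in every H2O library. It stood at 18.2 and 33.0 FPKM in floxed H2O livers, 65.2 and 39.5 FPKM in injured floxed, 12.5 and 21.9 FPKM in KO H2O, and 58.4 and 50.7 FPKM in injured KO livers. The means were 3.17-fold higher with injury in KO livers (log2 change 1.66 ± 0.37, adjusted p = 0.00565) and 2.05-fold higher in floxed livers (1.02 ± 0.37, adjusted p = 0.0465). The KO rise passed in all 18 settings. The floxed rise was lost in 8 of them, among them leaving out the first floxed H2O library (0.61, adjusted p = 0.260) or the first injured floxed library (0.67, adjusted p = 0.257), as well as either injured KO library (0.0718 and 0.0719), which changes only the estimate of the spread.

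Counted together, 3 of the 7 tested genes rose with injury in floxed livers (Epcam, Sox9 and Spp1) and 2 fell (Krt19 and Cdh1). Among all 13708 genes tested in that comparison 57.3% were called, 18.5% higher and 38.8% lower, and the median log2 change was -0.28 against 0.79 over the 7 genes. In KO livers 6 of the 7 rose and Cdh1 did not pass, where 63.0% of all genes were called, 22.3% higher and 40.7% lower, and the medians were -0.28 and 1.11. Epcam is in both counts of genes that rose, and Krt19 in that of KO livers. Both genes entered the test through groups in which they were high, so these counts are raised by the filter. Groups that did not overlap were as common: 7 of the 7 genes against 83.0% of all genes in floxed livers, and 6 of the 7 against 79.9% in KO livers. With most genes of the liver called, the share called says little about these genes, and the direction of each is what is described.

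**Figure D3:**
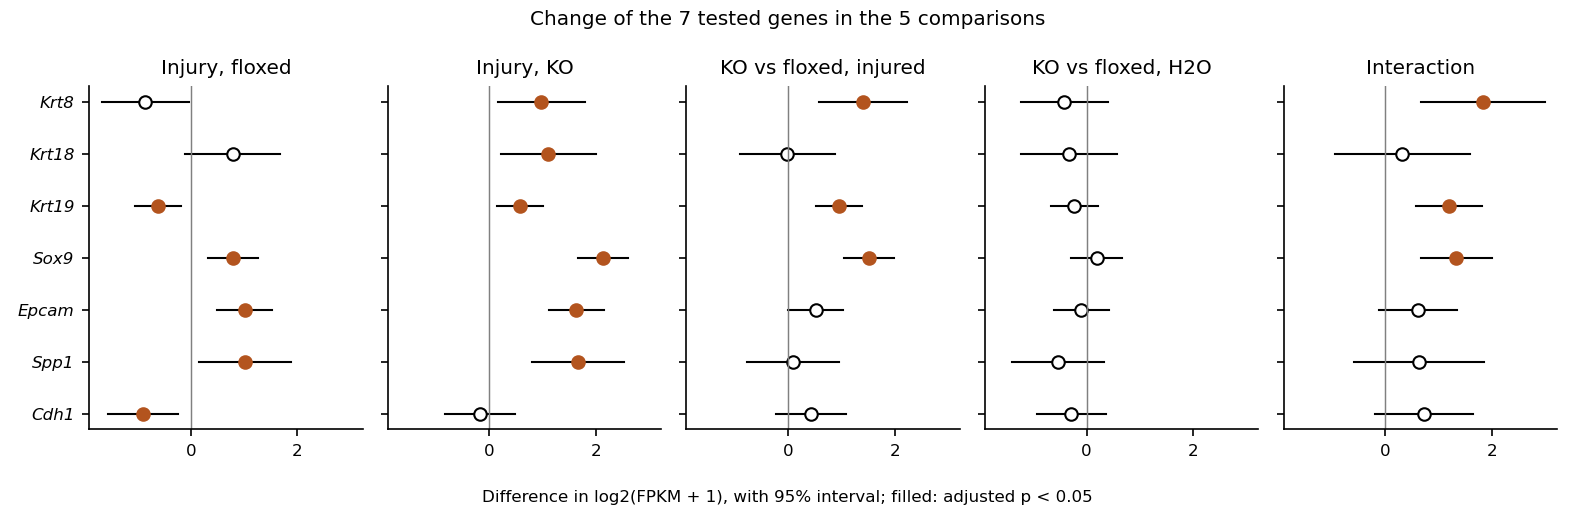
Difference in log2(FPKM + 1) of the 7 tested genes in the 5 comparisons (points), with 95% intervals from limma; filled points have an adjusted p under 0.05. Sox9, Krt19 and Krt8 are filled both in the comparison of injured KO with injured floxed livers and in the interaction, and no gene is filled in KO against floxed with H2O.

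Under injury, 3 of the 7 genes were higher in KO than in floxed livers and 0 were lower, where 52.5% of all genes were called, 25.3% higher and 27.2% lower. Sox9 was 3.18-fold higher (log2 difference 1.52 ± 0.20, adjusted p = 0.000844) and Krt8 was 2.82-fold higher (1.41 ± 0.35, adjusted p = 0.0120). Krt19 was higher by 0.96 ± 0.19 (adjusted p = 0.00421), on 66 and 42 fragments against 10 and 2, and with 0.1 FPKM added the difference was 2.51. Krt19 entered the test through the injured KO libraries and a floxed H2O library. The Krt8 difference was lost without the second injured KO library (0.89, adjusted p = 0.0515), without the first injured floxed library (0.0822) and under quantile normalisation (0.0944). Sox9 and Krt19 passed in every setting that tested them.

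The other 4 genes did not pass this comparison. The groups did not overlap for 5 of the 7 genes, against 78.6% of all genes. Epcam was higher by 0.52 ± 0.22 (adjusted p = 0.0860), with no overlap between the injured groups, and passed only without the first injured floxed library (0.77, adjusted p = 0.0485). Cdh1 differed by 0.43 ± 0.28 (adjusted p = 0.228). Krt18 differed by -0.01 ± 0.38 (adjusted p = 0.985, 95% interval -0.91 to 0.88) and Spp1 by 0.10 ± 0.37 (adjusted p = 0.848, interval -0.77 to 0.96). These intervals are wide on both sides of 0, so equal levels were not shown.

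With H2O, 0 of the 7 genes differed between KO and floxed livers by limma or by voom, and 0 had an unadjusted p under 0.05. Among all genes 0.00730% were called (1 of 13708), 780 had an unadjusted p under 0.05, and voom called 14. The log2 differences ran from -0.54 ± 0.37 for Spp1 to 0.18 ± 0.20 for Sox9, and each adjusted p was 1. The groups did not overlap for 4 of the 7 genes, against 34.7% of all genes. The 6 genes other than Sox9 were lower in the KO libraries on average, where the median of all genes was -0.09.

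The test of whether injury acted differently in the 2 genotypes (the genotype by injury interaction) passed for 3 of the 7 genes, all in the direction of a higher value in injured KO livers, where 36.0% of all genes were called, 20.9% higher and 15.1% lower. It was 1.33 ± 0.29 for Sox9 (adjusted p = 0.0108), 1.19 ± 0.27 for Krt19 (adjusted p = 0.0125) and 1.83 ± 0.50 for Krt8 (adjusted p = 0.0258). Krt18, the partner of Krt8, did not pass (0.32 ± 0.54, adjusted p = 0.675), and neither did Epcam (0.62 ± 0.32, adjusted p = 0.164), Cdh1 (0.72 ± 0.40, adjusted p = 0.192) or Spp1 (0.63 ± 0.53, adjusted p = 0.377). The Krt8 value was lost without the first KO H2O library (1.58, adjusted p = 0.0756), either floxed H2O library (0.0522 and 0.0773) or the first injured floxed library (0.0947), without the filter (0.0926) and under quantile normalisation (1.28, adjusted p = 0.109).

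The other genes of the ductal programme did not move as 1 group. Of 21 cholangiocyte genes 12 were tested, of which 5 rose and 4 fell in injured floxed livers and 9 rose and 2 fell in injured KO livers. Among all genes 18.5% were higher and 38.8% lower with injury in floxed livers, and 22.3% and 40.7% in KO livers. Between the injured groups 25.3% were higher in KO livers and 27.2% lower. The counts of this and the following lists stand against these shares. Of the 12, Cldn4, Cldn7 and Tspan8 reached 1 FPKM in the injured KO libraries only and Mmp7, Elf3 and Muc1 in injured libraries only, so they entered the test through the groups in which they were high, and the counts of higher genes are raised by the filter. The same holds for Notch3, Snai1, Ubd and Itgb3 in the lists that follow, and for 4 neutrophil genes, 3 monocyte genes and Gzma among the cell type markers, which reached 1 FPKM in injured libraries only. Conversely, Afp, Des, Kdr and Tek in the lists that follow reached 1 FPKM in H2O libraries only. The counts of genes that fell in their lists are raised by the filter. Mmp7, a matrix protease of injured ducts, rose in both genotypes, from between 0.102 and 0.240 FPKM in the H2O libraries to between 5.44 and 11.1 FPKM in the injured ones (log2 changes 2.85 ± 0.25, adjusted p = 0.000105, and 3.35 ± 0.25, adjusted p = 3.64e-05). Cd24a, a surface protein of ducts and progenitors that leukocytes also carry, rose by 2.62 ± 0.26 in KO livers (adjusted p = 0.000117). The duct transcription factor Onecut1, which hepatocytes express too, fell in both genotypes, by -1.56 ± 0.24 (adjusted p = 0.00106) in floxed and by -2.53 ± 0.24 (adjusted p = 8.97e-05) in KO livers. Slc4a2, the bicarbonate exchanger of ducts, also fell in both, by -1.05 ± 0.14 in floxed livers (adjusted p = 0.000576) and by -0.78 ± 0.14 in KO livers (adjusted p = 0.00183).

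Between the injured groups 6 of the 12 cholangiocyte genes were higher in KO livers and 1 was lower. Aqp1, a water channel of ducts and of endothelial and red blood cells, stood at 6.28 and 6.26 FPKM in injured floxed livers and at 46.1 and 28.9 FPKM in injured KO livers (log2 difference 2.37 ± 0.26, adjusted p = 0.000427). Cldn4, a tight junction claudin, stood at 0.0846 and 0.0701 FPKM against 3.69 and 1.53 FPKM (1.68 ± 0.27, adjusted p = 0.00170), and Cldn7 was higher by 0.92 ± 0.17 (adjusted p = 0.00291). Onecut1 was lower by -1.14 ± 0.24 (adjusted p = 0.00521). The interaction was positive for 5 of the 12, Aqp1, Cldn4, Cldn7 and Cd24a among them, of which Cldn4 and Cldn7 were tested only because of their injured KO values. Cftr, the chloride channel that defines cholangiocytes, stayed under 0.1 FPKM in every library. The summed level of the 21 genes was 229 and 311 FPKM in floxed H2O livers, 499.6 and 566 FPKM in injured floxed, 179 and 289 FPKM in KO H2O, and 625 and 702 FPKM in injured KO livers, of which Clu, which hepatocytes also make, took most.

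**Figure D4:**
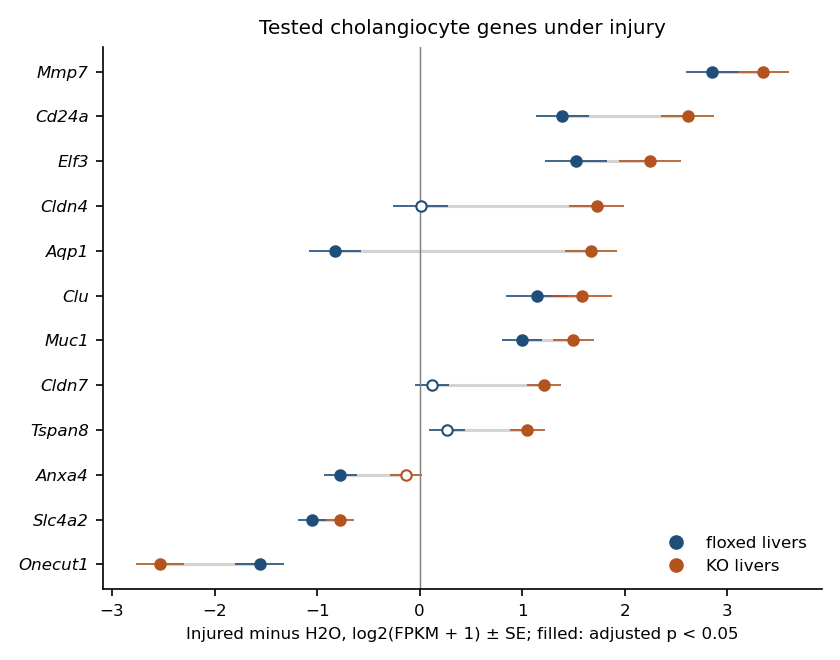
Injured minus H2O difference in log2(FPKM + 1), with its SE, for the 12 tested cholangiocyte genes in floxed (blue) and KO (orange) livers; filled points have an adjusted p under 0.05. Mmp7 lies far to the right in both genotypes, Onecut1 far to the left, and Aqp1 and Cldn4 differ most between the genotypes.

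Of 13 genes of Notch, TWEAK and progenitor signalling 8 were tested, of which 1 rose and 4 fell in floxed livers and 3 rose and 2 fell in KO livers. Hes1, a target gene of Notch, fell in floxed livers (-1.67 ± 0.15, adjusted p = 0.000115), from 5.77 and 5.01 FPKM to 1.23 and 0.791 FPKM, and had a change of -0.08 in KO livers (adjusted p = 0.646). It was thus higher in injured KO livers than in injured floxed ones by 1.67 ± 0.15 (adjusted p = 0.000267). Tnfrsf12a, the TWEAK receptor of progenitor cells, rose in both genotypes (1.80 ± 0.28, adjusted p = 0.00128, and 2.99 ± 0.28, adjusted p = 9.77e-05). Afp, the fetal liver protein, fell in both (-0.90 and -0.87). It reached 1 FPKM in H2O libraries only (1.37, 1.04 and 1.25 FPKM), so it entered the test through groups in which it was high. In the comparison of the injured groups 4 were higher in KO livers and 1 was lower.

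Among the genes that anchor keratin filaments to the membrane 7 of 11 were tested, of which 2 rose and 4 fell in floxed livers and 2 rose and 3 fell in KO livers. Plec (plectin, a filament linker) rose by 0.82 ± 0.17 in floxed livers (adjusted p = 0.00519) and by 1.48 ± 0.17 in KO livers (adjusted p = 0.000262). Dsp (desmoplakin, which ties keratins to desmosomes) fell by -1.51 ± 0.12 (adjusted p = 7.37e-05) and -1.40 ± 0.12 (adjusted p = 7.01e-05). In the comparison of the injured groups 2 were higher in KO livers and 1 was lower.

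Of 10 genes linked to keratin stress and inclusion bodies 9 were tested, of which 3 rose and 2 fell in floxed livers and 6 rose and 1 fell in KO livers. Ubd, a ubiquitin-like modifier found in such inclusions, stood at 0.354 and 0.688 FPKM in floxed H2O livers, 7.43 and 9.02 FPKM in injured floxed, 0.453 and 0.584 FPKM in KO H2O, and 31.5 and 21.8 FPKM in injured KO livers. It rose in both genotypes (2.60 ± 0.20, adjusted p = 6.49e-05, and 4.17 ± 0.20, adjusted p = 6.6e-06) and was higher in injured KO livers than in injured floxed ones (1.57 ± 0.20, adjusted p = 0.000782). Tgm2, the transglutaminase that cross-links keratins, rose by 2.51 ± 0.22 (adjusted p = 0.000103) and 3.38 ± 0.22 (adjusted p = 2.05e-05). The heat shock gene Hspb1 fell in floxed livers (-1.73 ± 0.33, adjusted p = 0.00311) and was higher in injured KO livers than in injured floxed ones (2.09 ± 0.33, adjusted p = 0.00161), where 5 genes of the list were higher and 1 lower.

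Of 8 other intermediate filament genes 6 were tested, of which 0 rose and 3 fell in floxed livers and 3 rose and 2 fell in KO livers, and 4 were higher in injured KO livers than in injured floxed ones with 0 lower. The shares of all genes called in these comparisons were 57.3%, 63.0% and 52.5%. Vim (vimentin, of mesenchymal and immune cells) stood at 2.88 and 4.12 FPKM in injured floxed and at 18.3 and 12.0 FPKM in injured KO livers (1.83 ± 0.27, adjusted p = 0.00125), and Nes (nestin) was higher by 1.60 ± 0.16 (adjusted p = 0.000347). There were 51 other entries with a keratin symbol, the pseudogene Krt8-ps among them. Of these 42 stayed under 0.1 FPKM in every library and 1, Krt23, was tested, since it reached 1 FPKM in the injured KO libraries. Krt23 stood between 0.217 and 0.654 FPKM in the 6 other libraries and at 1.55 and 1.17 FPKM in injured KO livers, where it rose (0.80 ± 0.16, adjusted p = 0.00361). Its change in floxed livers did not pass (-0.24, adjusted p = 0.244), and its interaction did (1.03 ± 0.23, adjusted p = 0.0122).

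Of 8 adherens junction genes, the partners of E-cadherin, all were tested: 1 rose and 3 fell in floxed livers and 1 rose and 5 fell in KO livers, where 38.8% and 40.7% of all genes were lower. Nectin1, a junction receptor, stood at 14.8 and 15.4 FPKM in floxed H2O, 6.97 and 8.22 FPKM in injured floxed, 12.0 and 13.2 FPKM in KO H2O, and 1.17 and 1.47 FPKM in injured KO livers. It was lower in injured KO livers than in injured floxed ones (-1.89 ± 0.15, adjusted p = 0.000175), where 3 of the 8 were lower and 1, Nectin2, was higher (0.99 ± 0.16, adjusted p = 0.00198). Ctnnb1 (β-catenin) rose in both genotypes (0.83 ± 0.20, adjusted p = 0.00877, and 0.59 ± 0.20, adjusted p = 0.0314).

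Of the 5 genes for repressors of Cdh1, 3 were tested, and all 3 were higher in injured KO livers than in injured floxed ones: Snai2 by 1.31 ± 0.21 (adjusted p = 0.00160), Snai1 by 1.44 ± 0.37 (adjusted p = 0.0125) and Zeb2 by 0.53 ± 0.17 (adjusted p = 0.0336). The Cdh1 difference did not pass there. Snai2 and Zeb2 fell in floxed livers, and Snai1 rose in KO livers. Of 4 genes that control the shedding of Epcam and cadherin 3 were tested: the protease gene Adam10 rose in floxed livers (0.84 ± 0.15, adjusted p = 0.00234), the protease inhibitor gene Spint2 fell there (-1.02 ± 0.21, adjusted p = 0.00495), and Adam17 rose in KO livers (0.69 ± 0.13, adjusted p = 0.00249). Adam10 was lower in injured KO livers than in injured floxed ones (-1.25 ± 0.15, adjusted p = 0.000604) and Spint2 higher (0.72 ± 0.21, adjusted p = 0.0243).

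Of 9 genes for receptors of osteopontin 7 were tested, of which 3 rose and 2 fell in floxed livers, 4 rose and 1 fell in KO livers, and 4 were higher in injured KO livers than in injured floxed ones with 0 lower, although the Spp1 difference did not pass. Of all genes 22.3% were higher and 40.7% lower with injury in KO livers, and 25.3% were higher in the comparison of the injured groups. Cd44 stood at 2.78 and 2.47 FPKM in injured floxed and at 13.3 and 7.39 FPKM in injured KO livers (1.60 ± 0.24, adjusted p = 0.00124), and Itgb3 at 1.88 and 2.42 FPKM against 17.5 and 7.41 FPKM (1.99 ± 0.32, adjusted p = 0.00174). Of 7 markers of Spp1-high macrophages 5 were tested, of which 2 rose in floxed and 5 in KO livers, with Lgals3 at 2.37 and 3.72 FPKM in injured floxed and at 19.9 and 17.8 FPKM in injured KO livers. Trem2 and Gpnmb, which define those macrophages, stayed at or below 0.163 and 0.288 FPKM.

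Markers of other cell types moved with the same groups, and their part in the results above was not tested. All 7 neutrophil genes rose in both genotypes, from sums between 4.69 and 8.94 FPKM with H2O to 99.8 and 167 FPKM in injured floxed and 959.9 and 1004 FPKM in injured KO livers. Of 7 tested monocyte genes 3 rose and 2 fell in floxed and 7 rose in KO livers, and of 7 Kupffer cell genes 4 fell in floxed and 4 rose in KO livers. The summed Kupffer cell level was 30.9 and 49.9 FPKM in injured floxed and 286 and 137 FPKM in injured KO livers. With H2O it was 156 and 114 FPKM in floxed and 68.1 and 68.9 FPKM in KO livers, though 0 of the 7 genes passed between those groups. The changes with injury thus start from different levels. Marco alone took 13.5 and 26.7 FPKM of the injured floxed sums and 181 and 79.3 FPKM of the injured KO ones. Of 8 stellate cell and fibroblast genes 2 fell in floxed livers and 5 rose and 2 fell in KO livers, with sums of 39.5 and 24.1 FPKM in injured floxed and 115 and 59.1 FPKM in injured KO livers. Dcn took most of each of these sums. Of 6 tested endothelial genes 4 fell in floxed livers and 2 rose and 3 fell in KO livers. Between the injured groups every tested gene of the neutrophil list, 6 of 7 of the monocyte and of the Kupffer cell list, 4 of 8 of the stellate and 3 of 6 of the endothelial list were higher in KO livers.

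Of 12 hepatocyte markers 1 rose and 4 fell in floxed livers and 2 rose and 1 fell in KO livers, and Alb, the gene of albumin, differed from H2O by -0.28 (adjusted p = 0.363) and -0.08 (adjusted p = 0.796). Between the injured groups 5 were higher and 2 lower in KO livers. The summed hepatocyte level was 29255.9 and 29728.3 FPKM in injured floxed and 40938.3 and 40250.4 FPKM in injured KO livers. Most of that difference lay in Apoa1 (means of 2846.5 and 10253.1 FPKM) and Ttr (1397.3 and 4537.6 FPKM). The Alb means were 20897.5 and 21149.5 FPKM, so the sums do not describe the list as a whole. Of the lists of lymphoid and blood cells, 2 T and NK cell genes were tested, of which 1 rose in floxed and 2 in KO livers, 4 of 5 B cell genes fell in floxed and 1 rose in KO livers, and 2 of 5 red blood cell genes fell in floxed and 4 rose in KO livers. Mesothelial cells also carry keratins 7, 8, 18 and 19: 0 of their 7 markers were tested, and Muc16 stayed under 0.1 FPKM. Their sum was 1.72 and 2.43 FPKM in floxed H2O and 1.38 and 0.103 FPKM in injured floxed livers. In KO livers it was 0.974 and 1.66 FPKM with H2O and 2.86 and 0.590 FPKM with injury. The part of these cells in the Krt7 and Krt19 values was not tested. Of the pancreas and gut list 2 genes were tested and fell in floxed livers (Cela1 and Fabp2), and Prss2 and Cpa1 stayed under 0.1 FPKM.

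The genes whose pattern over the 8 libraries lay closest to each of the 7 tested genes, by the root mean square difference of centred log2(FPKM + 1) over 13707 other genes, are given as a description. For Sox9 they were Tchh (0.14), Tnfaip6 (0.16) and Ppic (0.17), and for Epcam Slamf9 (0.15), Nid1 (0.15) and Rap1gds1 (0.15). For Krt19 they were Acvrl1 (0.10), Mrps6 (0.11) and Snrnp25 (0.12), and for Cdh1 Cryab (0.15), Acadl (0.15) and Gm38317 (0.17). Krt8, Krt18 and Spp1 had no gene as close: the nearest were Gm24992 (0.20), Nr1h2 (0.25) and Stat2 (0.25) for Krt8, Ang (0.22), Slc13a3 (0.23) and Grina (0.23) for Krt18, and Gm13597 (0.25), Gm15500 (0.27) and Nop58 (0.27) for Spp1. Krt18 was not among the 3 nearest of Krt8, nor Krt8 among those of Krt18. Low genes such as Krt19 change little on this scale, so small distances are easier for them to reach.

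Reads shared with other loci limit some of these values. A pseudogene of Krt8 (Krt8-ps) was listed at between 0.0542 and 0.403 FPKM, against at least 56.4 FPKM for Krt8. The sources used here do not say whether counting used the strand, so reads of a gene and of an overlapping gene on the other strand might not be told apart. Gm36026, which overlaps Krt8, was at most 0.249 FPKM, Gm671, which overlaps Krt7, at most 0.220 FPKM, and Gm42793, which overlaps Spp1, at most 0.368 FPKM. The Gm671 level is of the size of Krt7 itself, so Krt7 is the value most exposed.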

How the data were processed

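Per the labels' protocols, TRIzol was used to extract RNA from whole liver, and NEBNext Ultra libraries were run on an Illumina NovaSeq. The authors deposited 1 table of FPKM values for 55416 genes with 1 column per library, matched to the 8 samples by their descriptions. The submitters' processing notes name DESeq2 3.15 and GRCm39. The sources used here name no aligner, counter or annotation. Multiplied by the summed exon lengths of GENCODE M21, between 98.2% and 98.5% of the values above 0 came out whole to within 0.01, which gave the fragments per gene and library. Counting error is therefore known, and for Krt7 and Krt19 it is large.

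Values were tested as log2(FPKM + 1), a scale that understates changes of genes near or below 1 FPKM, with the scaling as deposited. The 13708 genes that reached 1 FPKM in 2 or more libraries entered limma 3.58.1 in R 4.3.3, with 1 mean per group, 4 residual degrees of freedom and a trend in the variance. The fit was also run on simulated counts with known changes and the same dispersion for every gene. That setting differs from these libraries, so it does not show how many calls are false here. Tests were two-sided, adjusted by the Benjamini-Hochberg method over all 13708 genes in each of 5 comparisons. Fold changes are ratios of group means in FPKM. Ratios of 2 genes were tested with exact permutation tests. Tables were made in Python 3.11.15 with scipy 1.17.1.

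The genes described and the gene lists were chosen with earlier results of these data known. Beside these genes, up to 4 genes of a list with the smallest adjusted p in a comparison are named, with cell type markers near 0, the 3 nearest patterns per gene, and Glul and Lyz2. Clu, Alb and the Ctnnb1 value in KO livers are given outside that rule, after their values were seen. 1 gene of the cholangiocyte list and 1 of the red blood cell list are not reported here and were left out of those lists' counts, medians and sums. The 18 other settings were 0.1 FPKM added, 2 other filters, 3 other scalings, array weights, a model of 2 groups at a time, a replicate block, voom on the recovered fragments, and each library left out.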

Additional observations from a re-analysis of the deposited data

Results flagged for a closer look

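For 3 genes the effect of injury differed between the genotypes by the interaction term of limma, a test of the difference itself. Sox9 had an interaction of 1.33 on the log2(FPKM + 1) scale, with a change of 0.79 in floxed and 2.13 in KO livers. Krt19 had an interaction of 1.19, with a change of -0.62 in floxed and 0.57 in KO livers, on 2 to 66 fragments per library. Krt8 had an interaction of 1.83, with a change of -0.85 in floxed livers, which did not pass, and 0.97 in KO livers. Of all genes tested, 36.0% passed the same term. Haemoglobin and mitochondrial shares and the markers of neutrophils, monocytes and Kupffer cells also differed between the injured groups, and their part in these values was not tested. With FPKM rescaled to exclude the mitochondrial and haemoglobin fragments, which alters the scaling alone, the interactions were 1.35 for Sox9 (adjusted p = 0.0104 by limma), 1.17 for Krt19 (0.0129) and 1.84 for Krt8 (0.0208). Over 17 other settings the Krt8 interaction passed in 11, and it was lost under quantile normalisation (1.28, adjusted p = 0.109 by limma). Krt19 entered the test through the injured KO libraries and a floxed H2O library.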

How the results depend on the processing

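The number of genes called among the 7 moved by over 1.5 times in 11 of 89 recomputed counts. For injury in floxed livers it was 5, and fell to 2 without the filter, to 3 under median centring and under quantile normalisation, and to 3 with a mean of at least 5 FPKM (5 genes tested). Leaving out 1 library gave between 3 and 6, with 3 whenever a floxed library was left out. For injury in KO livers it was 6, and fell to 3 without the filter and with array weights. Leaving out 1 library gave between 3 and 5, with 3 without the first KO H2O library. Single values turned sign 14 times, each for a difference that did not pass. Under median centring these were Cdh1 for injury in KO livers (0.048), Krt18 between the injured groups (0.042) and Epcam with H2O (0.0042). Under quantile normalisation they were Spp1 between the injured groups (-0.36), Krt18 in the interaction (-0.013) and Epcam with H2O (0.0016), and without mitochondrial and haemoglobin genes Krt18 between the injured groups (0.078). With 1 library left out they were Cdh1 in KO livers (range -0.44 to 0.085), Epcam with H2O (-0.36 to 0.16), Krt18 between the injured groups (-0.61 to 0.58, 0.24 between) and in the interaction (-0.28 to 0.91), and Spp1 between the injured groups (-0.26 to 0.45, -0.0028 between). Of the other recomputed values of single genes, 535 kept their direction and side of the threshold, 52 lost a call and 12 gained one. The causes were not tested.

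Median centring and quantile normalisation raised the share of higher genes among all calls from 32.3% to 49.7% and 50.7% in floxed livers, and median centring from 35.4% to 48.2% in KO livers. They moved the median of all genes from -0.28 to -0.01 and 0.01 in floxed livers. For the interaction quantile normalisation gave 48.1% against 58.1%. With a mean of at least 5 FPKM, 5626 genes were tested and 3686, 3519, 3397 and 2440 called, against 7861, 8639, 7192 and 4940. The interaction count was 2997 without the first injured floxed library and 3263 without the first floxed H2O library. With H2O between 0 and 17 genes were called. Deviations of libraries with the same replicate number had correlations from -0.10 to 0.27 between groups, the highest between the H2O groups. The labels name no batch, and with 2 libraries per group these values cannot show whether same-numbered libraries share one. With the replicate block 6, 6, 3, 0 and 3 of the 7 genes were called (7711, 8533, 7037, 0 and 4616 of all genes). Krt7 and Krt19 are limited by depth, with as few as 15 and 2 fragments.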
